A study of Mus musculus with 6 samples.

Results

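The 9 genes described here encode the parts with which a basal keratinocyte holds on to the basement membrane. They are the integrin subunits *Itga6*, *Itgb4*, *Itga3* and *Itgb1*, the laminin-332 chains *Lama3* and *Lamb3*, the cytolinkers *Plec* and *Dst*, and the tetraspanin *Cd151*. They were chosen by symbol from 55536 genes with counts, and all 9 were found once in the table and passed the filter on low counts.

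Hemidesmosomes are junctions on the basal face of the keratinocyte. The integrin heterodimer of α6 and β4 spans the membrane together with collagen XVII and CD151. Outside the cell it binds laminin-332, a trimer that holds the α3 and β3 chains, and inside the cell plectin and the epithelial product of *Dst* tie it to the keratin filaments. A second integrin, α3β1, binds the same laminin and connects to actin through focal adhesions. Inherited loss of many of these proteins is known to cause blistering between epidermis and dermis.

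Bulk RNA-seq was made from basal epithelial cells of dorsal skin of E16.5 embryos, in 3 Ctrl and 3 TKO libraries. TKO embryos were Suv39h2-/-, carried floxed alleles (f/f) of Suv39h1 and Setdb1, and had K14CreERT2, a tamoxifen-activated recombinase driven by the keratin 14 promoter in basal keratinocytes. Ctrl embryos carried the same alleles without the recombinase, so both groups lacked *Suv39h2*, and the labels give tamoxifen as the treatment of both. These 3 genes encode methyltransferases that place the repressive histone mark H3K9me3, and the comparison asks what changes in the RNA of basal cells when *Suv39h1* and *Setdb1* are removed where *Suv39h2* is already missing. Tamoxifen was given to the pregnant dam in mid-gestation. The study reports that the recombinase did not reach all cells, so that embryos often kept the mark in some of them. It also states that every TKO sample was checked for loss of the mark by antibody staining before use. The mice were on a mixed background. Ctrl replicate 1 and TKO replicate 2 were labelled female and the other 4 libraries male. Whether each library came from a single embryo was not established here, so p-values measure only the spread between these libraries.

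Cells were sorted as Epcam+ α6+, with an antibody to the protein of *Itga6*. *Itga6* was therefore part of the sort, and its level says nothing on its own about which cells the embryo held. *Itgb4* encodes the subunit with which α6 forms the hemidesmosome receptor, so its protein was part of the sorted complex too. To check the basal label, 7 markers were counted, all of which passed the filter on low counts. *Krt5*, the basal keratin, ranged from 6994 to 12318 CPM (counts per 1000000 of the TMM-scaled library) over the 6 libraries, and *Krt14* from 4203 to 6370 CPM. The keratins of the layer above were as abundant, with *Krt1* between 6100.3 and 10073 CPM and *Krt10* between 5694 and 9475 CPM. In bulk RNA, a different share of such cells and a different amount of RNA per cell cannot be told apart.

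Of the targeted genes, *Setdb1* read 126, 118 and 121 CPM in the Ctrl libraries (replicates 1 to 3, the order used throughout) against 95.3, 62.3 and 74.9 CPM in the TKO libraries. Its log2 fold change was -0.65 (SE 0.161), with an adjusted p of 0.286 by edgeR's quasi-likelihood test and of 0.0449 by DESeq2. *Suv39h1* (log2 fold change -0.10) and *Suv39h2* (0.11) did not pass the test. The counts take in whole genes, also exons outside the deleted part, so they are no check of the genotype.

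None of the 9 genes was called changed in TKO, and the largest fitted difference was 1.21-fold. A gene was called when its Benjamini-Hochberg adjusted p was under 0.05 and its absolute log2 fold change above 1. Over the 20622 genes tested, edgeR called 0.131% higher and 0% lower in TKO. At an unadjusted p under 0.05 (edgeR's, here and for every list that follows), where 4.06% of all genes were higher and 2.02% lower, the members again gave 0 of 9 in either direction. With 1 library left out, the smallest unadjusted p fell under that level for *Cd151* (0.0253) and *Itga3* (0.0499). DESeq2, which called 1.04% of the same genes, also called 0 of 9. The members' median log2 fold change was 0.03, beside 0.01 over all genes tested, and 6 of 9 had a value above 0. Their adjusted p-values from edgeR lay between 0.907 and 0.9998. The 95% interval of the fold change lay inside a 2-fold change in either direction for all 9 and inside a 1.5-fold change for 7, the exceptions being *Dst* and *Itga3*.

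These genes are abundant, and counting error is small beside the spread between libraries. Total counts ranged from 102159175 to 136515436 per library. The lowest count of any member in any library was 7026 reads, and the 9 together took between 0.399% and 0.505% of the scaled library. The median coefficient of variation (SD over mean) of the 9 was 7.06% among Ctrl and 13.9% among TKO libraries. Over the 4270 tested genes with a mean of at least 50 CPM it was 11.3% and 11.4%.

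**Figure D1:**
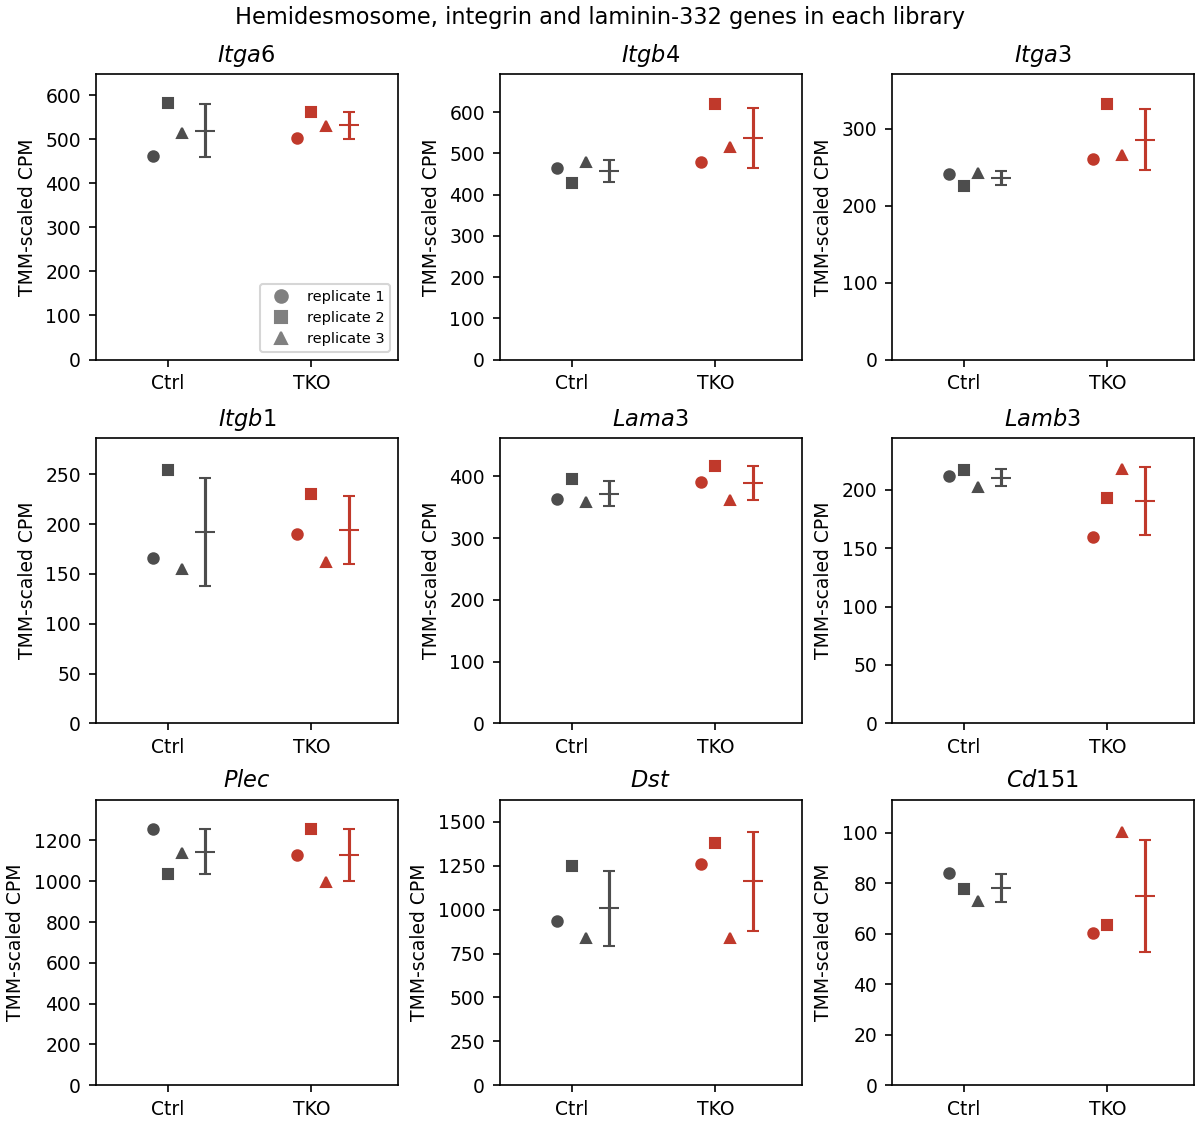
Each panel gives the TMM-scaled CPM of 1 gene in the 3 Ctrl (grey) and 3 TKO (red) libraries, with the mean and SD beside the points and the symbol showing the replicate number. The TKO points lie above all Ctrl points for *Itga3* and, by less than 1 CPM, for *Itgb4*, and overlap the Ctrl points in the other 7 panels.

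The α6β4 integrin is the receptor at the core of the hemidesmosome. *Itga6* (ENSMUSG00000027111, GRCm39 chromosome 2, 71575960 to 71689757, plus strand) read 462, 583 and 515 CPM in Ctrl against 503, 562 and 530.3 CPM in TKO. All TKO values fell inside the Ctrl range, and the fold change was 1.02 (95% interval 0.817 to 1.28), with a log2 value between -0.05 and 0.12 when each library was left out. *Itgb4* (ENSMUSG00000020758, chromosome 11, 115865333 to 115899239, plus strand) was at 464, 428 and 479.1 CPM in Ctrl and at 479.5, 619.6 and 516 CPM in TKO. The groups touched without overlapping, since the highest Ctrl and the lowest TKO library differed by less than 1 CPM. Its log2 fold change was 0.24 (SE 0.149, edgeR adjusted p 0.9998), or 1.18-fold with an interval of 0.936 to 1.48. Without TKO replicate 2, its highest library, the value was 0.12.

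The α3β1 integrin serves the same ligand outside hemidesmosomes. *Itga3* (ENSMUSG00000001507, chromosome 11, 94935296 to 94967682, minus strand) had the largest difference of the 9. It was at 240.4, 225 and 242 CPM in Ctrl and at 261, 331.6 and 265 CPM in TKO, so that the 2 groups did not overlap. The fitted log2 fold change was 0.28 (SE 0.142), or 1.21-fold with an interval of 0.972 to 1.51, and edgeR's adjusted p was 0.907. TKO replicate 2 again stood highest, and without it the log2 fold change was 0.16. *Itgb1* (ENSMUSG00000025809, chromosome 8, 129411876 to 129460618, plus strand), the β subunit shared by many integrins, was at 166, 254 and 155 CPM in Ctrl and at 189.9, 229.8 and 162 CPM in TKO. Replicate 2 was the highest library of each group, and the fold change of 1.01 (interval 0.732 to 1.4) was well inside the spread. Its log2 value of 0.02 ran from -0.13 without TKO replicate 2 to 0.27 without Ctrl replicate 2. Groups that did not overlap were thus 2 of 9, both higher in TKO. Of all genes tested, 6.35% had every TKO library above every Ctrl library and 5.11% every TKO library below.

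Neither laminin-332 chain among the members separated the groups. *Lama3* (ENSMUSG00000024421, chromosome 18, 12466876 to 12717747, plus strand) had the narrowest relative range of the members over the 6 libraries, at 363, 395 and 358 CPM in Ctrl and at 391, 416 and 361 CPM in TKO. Its fold change was 1.05 (interval 0.851 to 1.29). *Lamb3* (ENSMUSG00000026639, chromosome 1, 192890007 to 193027705, plus strand) was at 212, 217 and 203 CPM in Ctrl and at 159.9, 193 and 218 CPM in TKO. The Ctrl libraries were close together while TKO replicate 1 was low and TKO replicate 3 just above the Ctrl range, which gave a log2 fold change of -0.15 (SE 0.144, edgeR adjusted p 0.9998). Without TKO replicate 1 that value was -0.04, and without TKO replicate 3 it was -0.26.

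The cytolinkers were the most highly counted members and did not separate the groups. *Plec* (ENSMUSG00000022565, chromosome 15, 76055174 to 76116774, minus strand) was at 1259, 1038 and 1137 CPM in Ctrl and at 1131, 1257 and 998 CPM in TKO, a fold change of 0.986 (interval 0.775 to 1.25) that lay on either side of 1 depending on the library left out. *Dst* (ENSMUSG00000026131, chromosome 1, 33946918 to 34347742, plus strand) was at 935, 1248 and 839.9 CPM in Ctrl and at 1263, 1381 and 841 CPM in TKO. The third library of each group was lowest, at almost the same value, and the fold change of 1.15 had an interval of 0.819 to 1.62. Its log2 fold change of 0.20 ran from 0.06 without TKO replicate 2 to 0.39 without TKO replicate 3 when each library was left out in turn. *Dst* also encodes neuronal and muscle forms, *Plec* has many alternative first exons, and *Itga6* and *Lama3* have more than 1 isoform. A count over the whole gene cannot separate these.

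*Cd151* (ENSMUSG00000025510, chromosome 7, 141047256 to 141052572, plus strand), the tetraspanin that associates with both laminin-binding integrins, was the lowest member. It was at 84, 77.9 and 73 CPM in Ctrl and at 60.4, 63.6 and 100.3 CPM in TKO. The TKO libraries lay on both sides of the Ctrl range, 2 below it and 1 above, and the log2 fold change was -0.07 (SE 0.194). Leaving out TKO replicate 1 or TKO replicate 2 turned its sign, to 0.06 and 0.04. Without TKO replicate 3 the value was -0.34 (edgeR adjusted p 0.388). Whether the authors counted reads by strand is not given in the sources used here. Only *Itgb1* overlaps no gene on the other strand. The overlaps there include *Itgb4* with *Galk1*, *Cd151* with *Polr2l*, *Lamb3* with *G0s2* and *Hsd11b1*, and *Dst* with *Bend6*. On the same strand *Plec* overlaps *Parp10*. Some of these members' reads could belong to those genes.

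**Figure D2:**
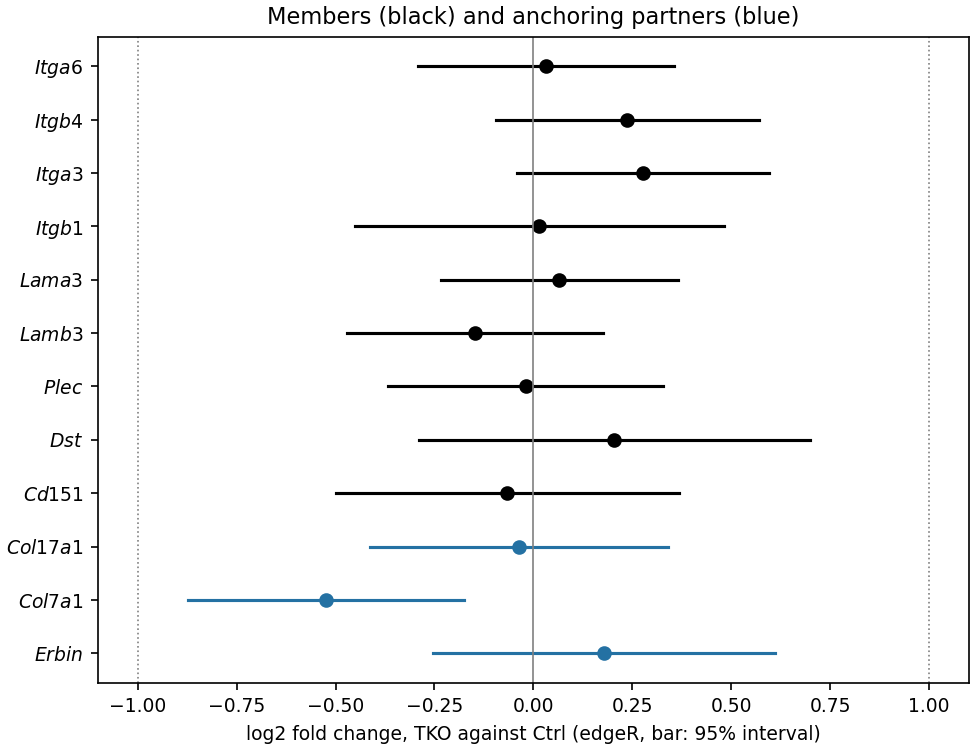
Fitted log2 fold changes of TKO against Ctrl with 95% intervals for the 9 members (black) and 3 anchoring partners (blue), with dotted lines at the 2-fold threshold. The intervals of all 9 members cross 0, and of the partners only that of *Col7a1* (-0.52) does not.

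Divided by the length of exon sequence, the members spanned from 15.1 to 63.3 CPM per kilobase in Ctrl. *Itgb4*, at 63.3 ± 3.67 CPM per kilobase (SD, n = 3), and *Plec*, at 63.2 ± 6.11, overlapped at the top, above all other members in all 3 libraries. They were followed by *Itga6* (45.7 ± 5.34), *Itga3* (40.5 ± 1.65), *Itgb1* (32.2 ± 9.11) and *Lama3* (28.9 ± 1.59), each overlapping its neighbour among the Ctrl libraries. Next came *Lamb3* (25.6 ± 0.906) and *Dst* (22.3 ± 4.73), which overlapped each other and the lowest *Itgb1* library, and *Cd151* was lowest, at 15.1 ± 1.06, below every other member in all 3 libraries. The order in TKO was the same except that *Itga3* (49.1 ± 6.82) and *Itga6* (46.7 ± 2.63) changed places, as did *Dst* and *Lamb3*, all of them neighbours that overlapped. With the length of the longest transcript in place of all exons, *Itga6* (74.9 CPM per kilobase in Ctrl), *Plec* (74.1) and *Itgb4* (71.1) overlapped at the top, *Itgb4* led in TKO at 83.8, and *Dst*, whose union of exons holds several isoforms, moved from the eighth to the fifth place at 43.3.

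**Figure D3:**
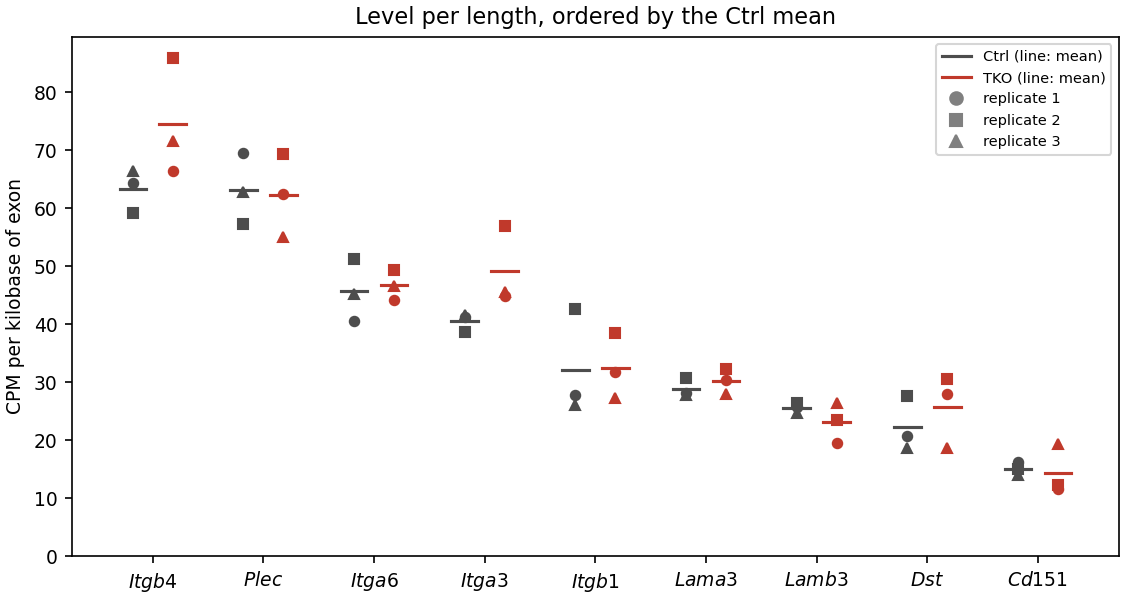
CPM per kilobase of exon for each member in every library, in the order of the Ctrl means, with Ctrl in grey, TKO in red, a line at the group mean and the symbol showing the replicate number. *Itgb4* and *Plec* lie near 63 in Ctrl and *Cd151* near 15, and the Ctrl and TKO points interleave for most members.

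Partner subunits were compared as ratios of counts within a library, which do not depend on library scaling. With 3 libraries against 3, an exact two-sided permutation test cannot go below p = 0.1, so no ratio could pass the threshold. The ratio of *Itga6* to *Itgb4* was 0.995, 1.36 and 1.08 in Ctrl and 1.05, 0.908 and 1.03 in TKO, a difference in mean log2 ratio of -0.19 (exact p = 0.4) that ran from -0.29 without Ctrl replicate 1 to -0.06 without Ctrl replicate 2. The ratio of *Itga3* to *Itgb1* was 1.45, 0.884 and 1.56 in Ctrl and 1.37, 1.44 and 1.63 in TKO. The difference of 0.23 (exact p = 0.7) rested on Ctrl replicate 2, where *Itgb1* was high, and was -0.02 without it. The receptors' α subunits, *Itga6* to *Itga3*, stood at 1.92, 2.59 and 2.13 in Ctrl and at 1.93, 1.7 and 2 in TKO (difference -0.23, exact p = 0.3, and -0.11 without Ctrl replicate 2).

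The chains of laminin-332 are made in equal number in the trimer, and their counts kept a narrow ratio in Ctrl. *Lama3* to *Lamb3* was 1.71, 1.82 and 1.77 in Ctrl, and more scattered in TKO at 2.44, 2.16 and 1.66 (difference in log2 ratio 0.22, exact p = 0.4). The difference was 0.10 without TKO replicate 1 and 0.38 without TKO replicate 3.

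**Figure D4:**
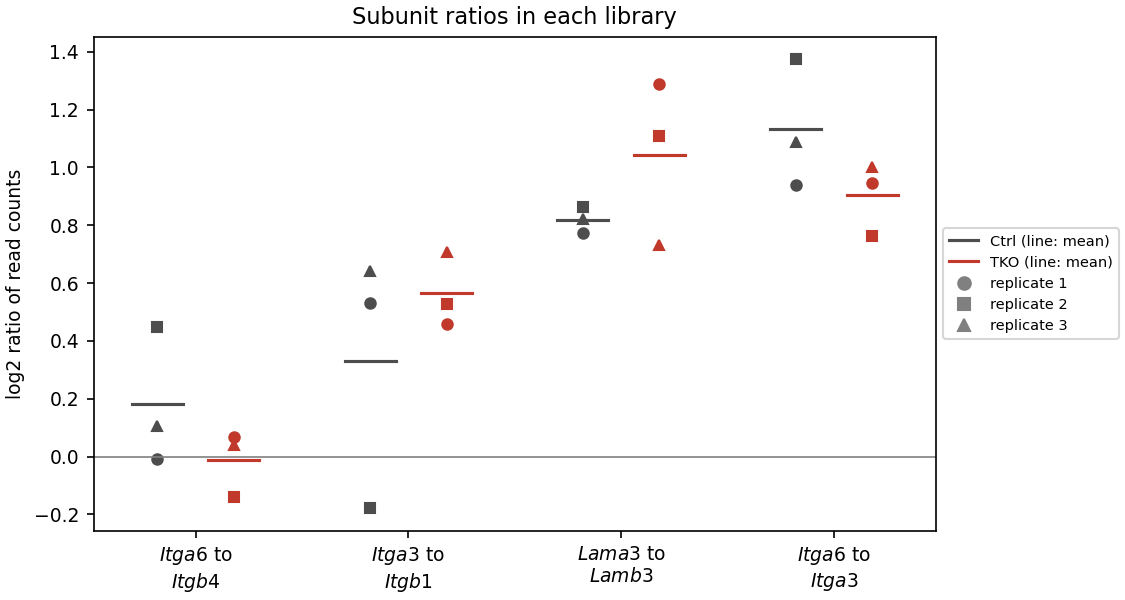
log2 ratio of read counts of partner genes in each library, with Ctrl in grey, TKO in red and a line at the group mean. In all 4 ratios the groups overlap.

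Among the other proteins of the junction, *Col17a1*, the transmembrane collagen of the hemidesmosome, was at 1185, 1055 and 1289 CPM in Ctrl and at 1001, 1071 and 1366 CPM in TKO. It was far above any member per length, at 196 ± 19.6 CPM per kilobase in Ctrl (SD, n = 3). Its log2 fold change was -0.04 (SE 0.168), and ran from -0.18 to 0.05 when each library was left out. *Erbin*, which binds the β4 cytoplasmic tail, had a log2 fold change of 0.18 (SE 0.193), with a range from 0.04 to 0.35 in the same way. *Col7a1*, the collagen of the anchoring fibrils beneath the basement membrane, was at 469, 379 and 396 CPM in Ctrl and at 334, 268 and 263 CPM in TKO. All TKO libraries lay below all Ctrl libraries, with a log2 fold change of -0.52 (SE 0.156), an unadjusted p of 0.00748 and an adjusted p of 0.451 by edgeR and 0.114 by DESeq2. This was 1 of 3 partners at an unadjusted p under 0.05, and 0 of 3 were called.

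Of 22 other integrin subunits, 20 passed the filter on low counts and 0 were called. One was at an unadjusted p under 0.05, *Itgav*, the αv subunit that binds fibronectin and vitronectin. It was at 62.7, 72.5 and 79.7 CPM in Ctrl and at 101, 133 and 79.7 CPM in TKO, where TKO replicate 3 matched the highest Ctrl library, and its log2 fold change of 0.55 (SE 0.19) had an adjusted p of 0.658 by edgeR and was 0.33 without TKO replicate 2. Per length, no other subunit reached the members with the exception of *Itgb5*, a partner of αv, at 28.6 ± 2.71 CPM per kilobase in Ctrl (SD, n = 3). By the union of exons *Itga2*, the collagen-binding subunit that pairs with β1, came next at 6.18 ± 0.993, overlapping *Itgav* at 5.81 ± 0.691. By the longest transcript *Itgav* was the higher of the pair, at 9.69 against 6.21. The median log2 fold change of the 20 was 0.10.

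Other basement membrane components included the laminin chains that are not part of laminin-332. Of 26 such genes, all tested, edgeR called 0, while 7 were higher and 2 lower at an unadjusted p under 0.05, beside 4.06% and 2.02% of all genes, and the median log2 fold change was 0.06. *Lama1*, the α1 chain of the early embryonic laminin-111, had the largest difference. It was at 20.1, 9.58 and 21.8 CPM in Ctrl and at 39.1, 34.8 and 32.8 CPM in TKO, with each TKO library above each Ctrl library. Its log2 fold change was 1.05 (SE 0.271), with an adjusted p of 0.316 by edgeR and 0.015 by DESeq2, which called it. *Lamb1*, the β1 chain, was at 123, 126 and 135 CPM in Ctrl and at 185, 231 and 146 CPM in TKO (log2 fold change 0.55, SE 0.169, edgeR adjusted p 0.499). *Lamc1*, the γ1 chain, which was chosen after its values were seen, had a log2 fold change of 0.35 (SE 0.143, edgeR adjusted p 0.762). *Npnt*, a ligand of the α8β1 integrin, and *Frem1*, of the Fraser complex, had values of 0.36 (SE 0.129) and 0.47 (SE 0.17). *Col4a6*, a type IV collagen chain of the epidermal basement membrane, was at 50.9, 45.9 and 45.7 CPM in Ctrl and at 37.6, 28.4 and 27.6 CPM in TKO, with a log2 fold change of -0.61 (SE 0.159, edgeR adjusted p 0.327). The most abundant components per length, *Agrn* and *Hspg2*, both heparan sulfate proteoglycans, had log2 fold changes of -0.15 and 0.01.

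**Figure D5:**
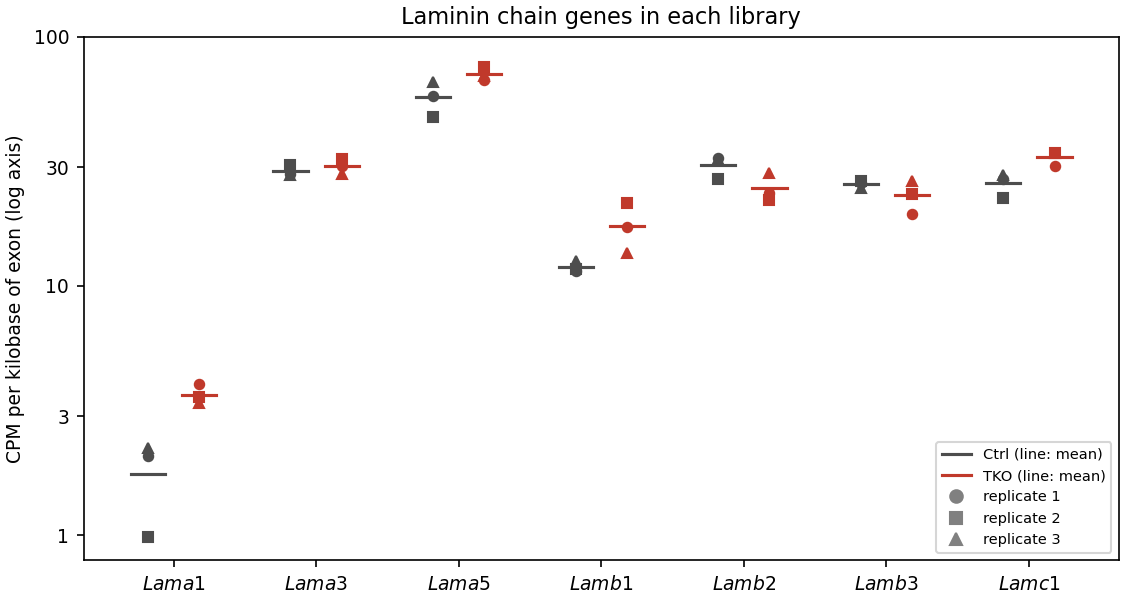
CPM per kilobase of exon, on a log axis, for 7 laminin chain genes in each library, with Ctrl in grey, TKO in red and a line at the group mean. *Lama1* lies more than an order of magnitude below *Lama3* in Ctrl and is the chain with the widest gap between groups, while *Lama3* and *Lamb3* overlap. The groups also lie apart, higher in TKO, for *Lamb1*, *Lamc1* and *Lama5* (log2 fold change 0.31, edgeR adjusted p 0.907), and overlap for *Lamb2* (-0.31, edgeR adjusted p 0.861). *Lama5* and *Lamb2* were added after their values were seen.

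The level of *Lama1* stayed small beside that of *Lama3*, at 1.77 ± 0.68 CPM per kilobase in Ctrl and 3.66 ± 0.332 in TKO (SD, n = 3), against 28.9 ± 1.59 and 30.2 ± 2.12 for *Lama3*. Other cells also make these chains, and although the sort on Epcam and α6 integrin is meant to remove them, their markers were counted. The 8 skeletal muscle markers summed to 3.44, 10.9 and 7.2 CPM in Ctrl and to 33.1, 33 and 34.5 CPM in TKO, and 4 of 8 were higher at an unadjusted p under 0.05, none lower. Their most abundant gene was *Ttn*, and *Myh3* was the one called by edgeR, with a log2 fold change of 2.61 (SE 0.336, adjusted p 0.0211), while DESeq2 called 4 of the 8. The lineage factor *Myog* was at 0.283, 0.813 and 0.315 CPM in Ctrl and at 0.119, 1.44 and 1.66 CPM in TKO, with overlapping groups and a log2 fold change of 1.18 (SE 0.816). The 6 fibroblast markers summed to 1203, 3358 and 3009 CPM in Ctrl and to 2162, 2564 and 2807 CPM in TKO. Ctrl replicate 1 was lowest, *Col1a1* was the most abundant, at 367 CPM there and between 799 and 1314 CPM elsewhere, and 0 of 6 passed an unadjusted p under 0.05. The 5 endothelial markers, led by *Cdh5*, summed to 26, 26 and 36 CPM in Ctrl and to 24.4, 62.4 and 50.6 CPM in TKO, with 1 of 5 higher. Whether these counts come from such cells, and their part in the values of the laminin genes, was not tested.

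The adaptors that join integrins to actin did not separate the groups. Of 18 linkers and focal adhesion genes, 0 were called and 0 were at an unadjusted p under 0.05 by edgeR, with a median log2 fold change of 0.14. By DESeq2 the unadjusted p was 0.0392 for *Tns4* and 0.0486 for *Zyx*, both named after their values were seen, and neither was called. *Actn4*, an α-actinin, averaged 788 ± 33.5 CPM over the Ctrl libraries and 786 ± 81.3 CPM over the TKO libraries (SD, n = 3). *Tln1*, talin, which activates integrins, read 327, 295 and 318 CPM in Ctrl against 311, 351 and 310.3 CPM in TKO. Of 10 other adhesion receptors and tetraspanins, 0 were called and 1 was lower at an unadjusted p under 0.05. This was *Cd9*, a tetraspanin, at 308, 336 and 253 CPM in Ctrl and at 249, 239.8 and 223 CPM in TKO (log2 fold change -0.34, SE 0.146, edgeR adjusted p 0.804). *Bcam*, a receptor for laminin α5, had a log2 fold change of -0.06 (SE 0.171). By the union of exons *Bcam* had the highest mean level per length of the 10, at 161 ± 30.3 CPM per kilobase in Ctrl. Its Ctrl libraries overlapped those of *Cd9*, and by the longest transcript *Cd9* was higher, at 232 against 208.

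Some keratins, the filaments to which hemidesmosomes attach, had larger fitted differences than any member. *Krt5* was at 12318, 12051 and 8179 CPM in Ctrl and at 6994, 8037 and 9022 CPM in TKO, a log2 fold change of -0.44 (SE 0.202, edgeR adjusted p 0.854). *Krt15*, a keratin of undifferentiated basal cells, was at 2716, 2579 and 2089 CPM in Ctrl and at 901, 792 and 1573 CPM in TKO. The groups lay apart, with a log2 fold change of -1.18 (SE 0.256) that edgeR did not call (adjusted p 0.185) and DESeq2 did (adjusted p 0.00066). With each library left out in turn, edgeR's adjusted p ran from 0.016 to 0.697 and the log2 fold change from -1.54 to -0.99. *Krt15* was 1 of 7 basal markers at an unadjusted p under 0.05. The median log2 fold change of the 7 was 0.01. *Krt14* was at -0.30, while *Trp63*, *Epcam*, *Cdh1* and *Cdh3* lay between 0.01 and 0.13. Of 7 suprabasal markers 2 were lower at an unadjusted p under 0.05, *Krt1* (log2 fold change -0.51, SE 0.178) and *Krt10* (-0.42, SE 0.17), neither called by either tool. The median over these 7 was -0.03, with values from -0.51 to 0.49. The difference between *Krt15* and the members was not tested.

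The members did not vary as 1 block over the 6 libraries. Over the 36 pairs of members the median Pearson r of log2 CPM was 0.20, and 21 pairs had a value above 0. *Itgb4* and *Itga3* followed each other most closely (r = 0.98), then *Lama3* and *Dst* (r = 0.97), and *Dst* and *Cd151* ran most opposite (r = -0.72). The heterodimer partners *Itga6* and *Itgb4* (r = 0.21) and *Itga3* and *Itgb1* (r = 0.19) followed each other little. These are descriptions over 6 libraries that share their scaling, with no test. TKO replicate 2 was the highest of the 6 libraries for 4 of the 9 members and the lowest for none.

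The protein-coding genes whose log2 CPM was most like the members' mean standardised log2 CPM over the 6 libraries were *Arhgap22* (r = 0.99), *Abcg2* (r = 0.98), *Glud1* (r = 0.97), *Aprt* (r = 0.96) and *Arhgef28* (r = 0.96). They were the top 5 of 9029 candidates with a mean of at least 10 CPM, of which 29 had r above 0.9. By rank, Spearman's rho was 0.94 for *Arhgap22*, *Glud1* and *Aprt*, 0.77 for *Abcg2* and 0.60 for *Arhgef28*. How many unrelated genes would reach such r over 6 libraries was not tested, so no link to the members is drawn. All 5 were highest in TKO replicate 2, as was the members' mean.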

How the data were processed

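The authors depleted rRNA, trimmed reads with fastp and aligned them with STAR, and deposited raw read counts per Ensembl gene, 1 column per library, without normalization or pooling. The submitters' processing notes name GRCm38, whereas the study's methods name GRCm39. The counting program, annotation and strand setting are not given in the sources used here. Symbols, positions and exon lengths came from GENCODE vM39 (GRCm39), matched by identifier (51477 of 55536 genes, 86.4% to 94.1% of each library's counts).

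Total counts were 102159175, 136515436 and 104422632 in Ctrl replicates 1 to 3 and 116308383, 108957256 and 118413082 in TKO. Genes were kept by filterByExpr (minimum count 10, minimum total 15) and tested with edgeR 4.0.16 in R 4.3.3 (TMM, robust glmQLFit, glmQLFTest), with all 6 libraries in the fit. CPM per kilobase is CPM over the union of exons. Ratios were tested by exact permutation (scipy 1.17.1). The scripts were tested on simulated data. Alternatives were DESeq2 1.42.0, RLE size factors, no filter on low counts, a minimum of 10 counts in each library, a replicate block, sex as a factor, each library left out, and, for levels per length, the longest transcript.

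The 9 genes, the other gene lists and the rule for named genes were chosen with earlier results of these data known. Named are the members, *Col17a1*, from each other list up to 5 genes by smallest unadjusted p under 0.05 and the 2 highest per kilobase in Ctrl, the most abundant gene of each marker list, the targeted genes and the 5 genes most like the members. *Erbin*, *Foxd3* and other genes of the lists outside this rule were named after their values were seen. A planned gene and its ratio are not reported here.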

Additional observations from a re-analysis of the deposited data

How the results depend on the processing

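Under the 12 alternatives none of the 9 members was called, and the smallest adjusted p of a member was 0.388. Of 108 member log2 fold changes 97 kept their sign, and the 11 that did not were all small. With no filter on low counts *Itga6* was at -0.0028 and *Itgb1* at -0.024. With 1 library left out, *Itga6* ran from -0.047 (without Ctrl replicate 1) to 0.12, with -0.011 without TKO replicate 2. *Itgb1* ran from -0.13 (without TKO replicate 2) to 0.27 (without Ctrl replicate 2), also below 0 without Ctrl replicate 1 or 3. *Plec* ran from -0.11 to 0.061, above 0 without Ctrl replicate 1 or TKO replicate 3, and *Cd151* from -0.34 (without TKO replicate 3) to 0.062, above 0 without TKO replicate 1 or 2. The ratio of *Itga3* to *Itgb1* turned from 0.23 to -0.023 without Ctrl replicate 2, the lowest of its leave-one-out values, the highest being 0.39. With the longest transcript as length, 5 of 9 members changed place in the order.

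The number of genes called over the whole table moved from 27 to 214 with DESeq2, 235 with no filter, 9 with at least 10 counts in every library and between 7 and 81 with 1 library left out, and the cause was not tested. Replicate numbers are shared between the groups, but same-numbered libraries deviated together only weakly (r = 0.168, 0.0873 and 0.127), so the numbers were not taken as pairs. With the replicate block 45 genes were called, none of them a member, each library correlated best with its own number as a hint from the data, and the ratios had exact sign-flip p-values of 0.5 or 0.75, in a test that cannot pass the threshold with 3 pairs.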

Other observations

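Markers of cell types not set beside a result above were also counted. The 6 Merkel cell markers, of which 5 passed the filter on low counts, summed to 8.76, 9.9 and 9.81 CPM in Ctrl replicates 1 to 3 and to 3.53, 2.02 and 3.72 CPM in TKO. All 5 were lower at an unadjusted p under 0.05 with groups apart. *Krt8*, the most abundant, had a log2 fold change of -1.92 (SE 0.353) and *Atoh1*, the lineage factor, of -2.46 (SE 0.737), with adjusted p-values by edgeR of 0.113 and 0.459, and DESeq2 called 2 of the 5. The 5 melanocyte markers, led by *Mitf*, summed to 6.62, 10.1 and 12 CPM in Ctrl and to 11.4, 12.9 and 13.5 CPM in TKO, with 1 higher at an unadjusted p under 0.05, *Mlana*, at or below 1.53 CPM in every library. The largest log2 fold change among these 5 was 3.13, edgeR called 0 of them and DESeq2 called 1 higher. The 5 immune markers, led by *Csf1r*, summed to 14, 22.9 and 8.15 CPM in Ctrl and to 3.13, 36 and 10.1 CPM in TKO. Of the 5 Schwann and neural crest glia markers, *Erbb3*, which keratinocytes also express, made up nearly the whole sum of 271, 200.1 and 245 CPM in Ctrl and 194, 176 and 235 CPM in TKO, while *Foxd3* was at 0 in every library. None of the immune or glia markers passed an unadjusted p under 0.05.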
